A study of Mus musculus with 9 samples.

Results

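The complement system tags cells, synapses and debris for removal, and 7 of its genes are described here in mouse hippocampus: C1qa, C1qb and C1qc, which encode the chains of C1q, the opsonin precursors C3 and C4b, and the inhibitors Serping1 and Cd59a. They were chosen by name, and all 7 were found among the 14779 genes of the deposited count table by matching Ensembl identifiers to GENCODE M21. Polyadenylated RNA was sequenced from 9 hippocampi, 3 in each of 3 groups. Air+IgG mice were kept in air with IgG, CIE+IgG mice underwent chronic intermittent ethanol exposure (CIE) with IgG, and CIE+IL17 Ab mice underwent the ethanol exposure with an antibody against the cytokine interleukin 17A. All 3 groups therefore carry an antibody treatment, and the samples hold no air group with the interleukin 17A antibody. The labels name no strain, genotype, sex, age, dose or duration.

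C1q is the recognition molecule of the classical pathway. When it binds a surface, the proteases C1r and C1s cleave C4 and C2, and the resulting convertase cleaves C3, whose fragments stay on the target and are bound by phagocyte receptors. Serping1 encodes the C1 inhibitor, which inactivates C1r and C1s, and Cd59a encodes a membrane-anchored protein that blocks assembly of the membrane attack complex. In brain, microglia are the main source of C1q, astrocytes and oligodendrocytes can express C4b, and complement on synapses is known for its part in their elimination by microglia.

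The C1q genes lie next to each other on the minus strand of chromosome 4 of GRCm38: C1qb at chr4:136880129-136886187, C1qc at chr4:136889804-136893065 and C1qa at chr4:136895917-136898803. C3 and C4b are on chromosome 17, at chr17:57203970-57228136 and chr17:34728380-34743882, and Serping1 and Cd59a are on chromosome 2, at chr2:84765387-84775444 and chr2:104095801-104115354. All 7 are protein-coding, the microRNA gene Mir6978 overlaps C3, and each position is that of the whole gene with exons and introns. Sequence upstream of the start was matched for 4 of the 7 genes in RefSeq (GRCm38.p6). These were C1qb, C1qc, C3 and Cd59a, and the 202 bases of Cd59a, which held neither motif searched, are not printed. The stretches of C1qb and C1qc are shown because these neighbours are read together below, and that of C3 because its level ranged widely among ethanol-exposed mice. Each is on the minus strand, written 5′ to 3′, and lies upstream of every annotated transcript of its gene, at chr4:136886201-136886450 for C1qb, chr4:136893066-136893164 for C1qc and chr17:57228137-57228386 for C3. Capitals mark matches to AGGAAGT, a core bound by ETS factors such as the microglial regulator PU.1, or to TTGCNNAA, a form bound by C/EBP factors, on either strand.
C1qb: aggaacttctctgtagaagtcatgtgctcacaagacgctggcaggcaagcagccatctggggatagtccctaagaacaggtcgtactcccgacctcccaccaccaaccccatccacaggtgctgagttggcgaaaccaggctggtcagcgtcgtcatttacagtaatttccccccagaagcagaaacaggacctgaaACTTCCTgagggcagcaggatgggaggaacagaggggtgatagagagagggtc
C1qc: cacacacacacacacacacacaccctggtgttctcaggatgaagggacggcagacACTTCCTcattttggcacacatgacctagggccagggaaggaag
C3: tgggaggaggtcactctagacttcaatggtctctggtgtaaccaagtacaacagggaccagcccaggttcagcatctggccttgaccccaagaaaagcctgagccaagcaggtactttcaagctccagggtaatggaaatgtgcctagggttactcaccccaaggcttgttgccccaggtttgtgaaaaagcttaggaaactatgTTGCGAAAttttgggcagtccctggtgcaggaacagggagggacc
The ETS core was present once in the stretch of C1qb and once in that of C1qc, and the C/EBP form once in that of C3. AGGAAGT was found in 7.8% of 27025 promoters in a window of 250 bases and in 2.63% in one of 99 bases, and TTGCNNAA in 9.55% in 250 bases. The motifs were picked after the sequences were seen, and a match describes letters, not a bound site.

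Estimated counts summed to between 7372658 and 11894628 per library, and 14696 genes were tested. Levels are given as CPM, the counts of a gene scaled to a common library size with TMM factors. Marker sums of several brain regions differed between libraries. The 8 markers of CA1 pyramidal neurons, a subfield of the hippocampus, summed to 463 to 730.3 CPM in the IgG groups and to 146.5 to 291.1 CPM in CIE+IL17 Ab, while 11 thalamus and habenula markers summed to 165.1 to 340.3 CPM and to 1030 to 1747 CPM. Choroid plexus markers ranged from 66.02 to 7122 CPM. Striatum markers summed to 1278 CPM in CIE+IgG replicate 3 and 808.6 CPM in CIE+IL17 Ab replicate 3. In the other libraries the striatum sum was 223.2 to 258.9 CPM. Lars2 had 593544 counts in Air+IgG replicate 2 and 495056 in the first CIE+IL17 Ab replicate, against at most 2167 in the others. The label numbers 37 to 39 belong to 1 library of each group and 54 to 60 to the other 6, and what they number is not given in the labels. The design text gives 3 mice per group, and p-values measure the spread between these libraries.

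None of the 7 complement genes was called in any of the 3 comparisons. C4b and Cd59a came closest: C4b was 0.683 times as abundant in CIE+IL17 Ab as in CIE+IgG, and Cd59a was 2.45 times as abundant in CIE+IL17 Ab as in Air+IgG. A gene was called at a Benjamini-Hochberg adjusted p under 0.05 in the quasi-likelihood test of edgeR. Between CIE+IgG and Air+IgG, 0 of 7 members were called where 0.0% of all genes were. Between CIE+IL17 Ab and CIE+IgG, 0 of 7 were called against 3.18% of all genes, and between CIE+IL17 Ab and Air+IgG 0 of 7 against 13.5%. At an unadjusted p under 0.05 the counts were 1, 1 and 2 of 7, against 2.76%, 22.3% and 32.0% of all genes. The share called higher and lower was 1.78% and 1.41% for CIE+IL17 Ab against CIE+IgG. The groups did not overlap for 0 of 7 members between CIE+IgG and Air+IgG, where 9.44% of all genes did not overlap, 4.64% higher and 4.8% lower. DESeq2 called 0, 1 and 1 member and limma-voom 0, 0 and 1. The 3 comparisons reuse the same groups, so their values are set side by side and not counted as separate evidence.

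**Figure D1:**
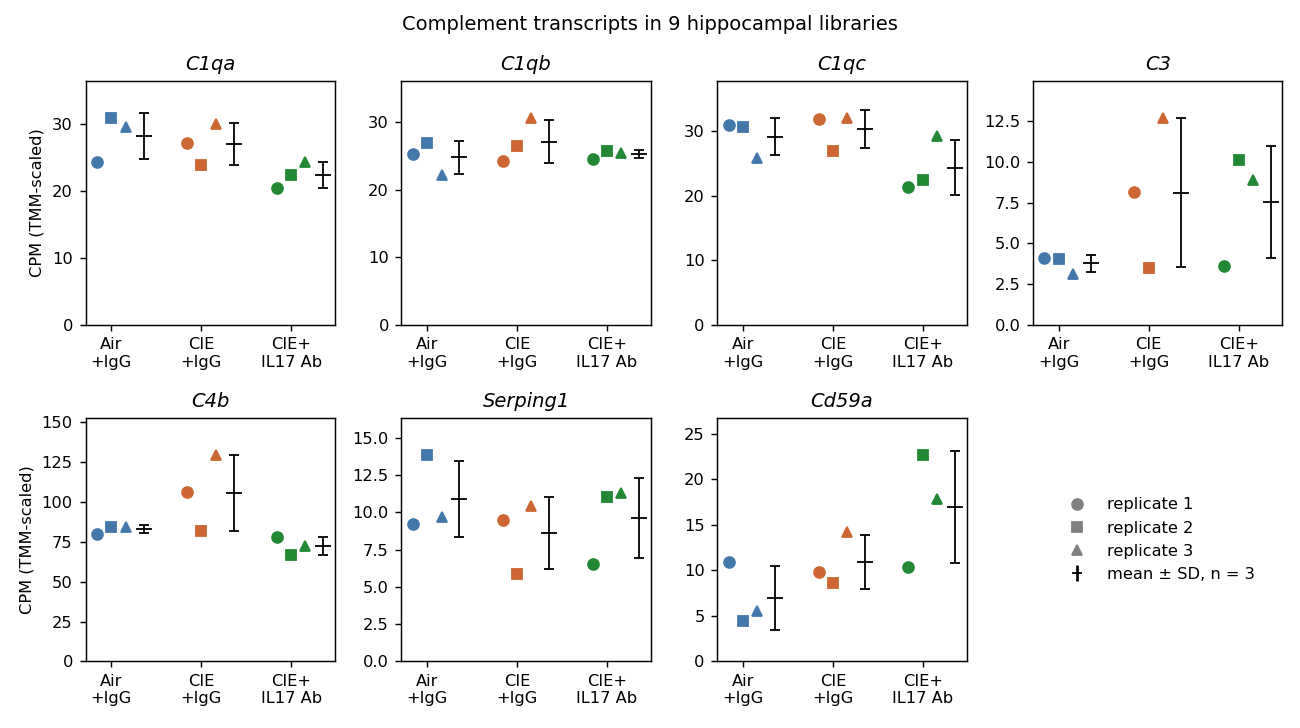
TMM-scaled CPM (vertical axes, from 0) of the 7 complement genes in each of the 9 libraries, by group; symbols are replicates, and bars are the mean ± SD of 3 libraries. The C1q genes stay between 20.4 and 32.1 CPM, while C3 and Cd59a spread over 3.13 to 12.7 and 4.44 to 22.7 CPM.

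Per kilobase of the principal transcript, the C1q chains stood at nearly one level. C1qa had 24.8 ± 3.52 CPM per kb, C1qb 23.6 ± 2.10 and C1qc 23.2 ± 3.34 (SD, n = 9 libraries), which lie within each other's spread. C4b followed with 16.2 ± 3.58 CPM per kb. Cd59a and Serping1, with 6.44 ± 3.22 and 5.49 ± 1.37, do not differ beyond their spread, and C3 was the lowest with 1.26 ± 0.688 CPM per kb. The place of C1qc depends on the length used: over all annotated exons, which add those of a processed transcript, it had 14.5 CPM per kb. The highest library was 1.38 times the lowest for C1qb, 1.5 times for C1qc and 1.51 times for C1qa, against 4.06 times for C3 and 5.11 times for Cd59a.

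C1qa, the A chain, had 24.3, 30.8 and 29.5 CPM in Air+IgG, 27.1, 23.8 and 30.0 CPM in CIE+IgG and 20.4, 22.4 and 24.3 CPM in CIE+IL17 Ab. CIE+IL17 Ab held the 2 lowest libraries and overlapped CIE+IgG. They were also below all of Air+IgG, though the nearest libraries, at 24.26 and 24.27 CPM, were nearly equal. The log2 fold change was -0.27 with a standard error (SE) of 0.13 against CIE+IgG (adjusted p = 0.26) and -0.33 with an SE of 0.13 against Air+IgG (adjusted p = 0.118, edgeR). Its groups were among the 2 of 7 members that did not overlap between CIE+IL17 Ab and Air+IgG, where 35.3% of all genes did not overlap and 18.1% were lower. Between CIE+IgG and Air+IgG the value was -0.062, with a 95% interval of -0.353 to 0.229. In the libraries numbered 37 to 39 the CIE+IL17 Ab level was 0.760 times that of Air+IgG, and in those numbered 54 to 60 it was 0.812 times.

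C1qb, the B chain, had 25.2, 26.9 and 22.2 CPM in Air+IgG, 24.3, 26.5 and 30.6 CPM in CIE+IgG and 24.6, 25.7 and 25.4 CPM in CIE+IL17 Ab. All groups overlapped, and this gene was the steadiest member, with a coefficient of variation of 8.9% over the 9 libraries. The 95% intervals of its log2 fold change ran from -0.124 to 0.390 for ethanol against air and from -0.360 to 0.153 for the antibody against IgG in ethanol-exposed mice. C1qc, the C chain, had 31.0, 30.7 and 25.9 CPM in Air+IgG, 32.0, 26.9 and 32.1 CPM in CIE+IgG and 21.4, 22.5 and 29.2 CPM in CIE+IL17 Ab. CIE+IL17 Ab replicates 1 and 2 were the lowest and replicate 3 lay among the other groups. Its log2 fold change was -0.31 with an SE of 0.14 for CIE+IL17 Ab against CIE+IgG (adjusted p = 0.232, edgeR), and -0.47 without CIE+IL17 Ab replicate 3.

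Microglia markers are set beside the C1q genes, none of which was called. Of 16 markers, all tested and none at 0 in any library, 15 were below 0 in CIE+IL17 Ab against CIE+IgG, with a median log2 fold change of -0.28 against 0.015 for all genes. P2ry12, a purine receptor of resting microglia, and Csf1r, the receptor for the factor that keeps microglia alive, were called lower. Among all genes 1.41% were called lower in this comparison. The summed markers were 403.1 to 420.6 CPM in CIE+IL17 Ab, 492.3 to 518.6 CPM in CIE+IgG and 460.4 to 537.4 CPM in Air+IgG. The 3 C1q genes summed to 66.4, 70.6 and 78.9 CPM in CIE+IL17 Ab and to between 77.1 and 92.7 CPM in the IgG groups. As a percentage of the marker sum, C1q was 17.5, 16.4 and 16.2 in Air+IgG, 16.8, 15.7 and 17.9 in CIE+IgG and 15.8, 17.5 and 18.8 in CIE+IL17 Ab. These percentages overlap in all 3 groups, so relative to the markers the C1q sum was not separated by group. This holds for the sum and need not hold for each chain. C1qb alone had 24.6 to 25.67 CPM in CIE+IL17 Ab, against 22.16 to 26.9 CPM in Air+IgG and 24.27 to 30.57 CPM in CIE+IgG. It did not share the lower level of the marker sum. The CA1 and the thalamus and habenula marker sums given above also separated CIE+IL17 Ab from the IgG groups. In bulk tissue, fewer microglia, less RNA per microglial cell and a different mix of brain regions cannot be told apart.

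**Figure D2:**
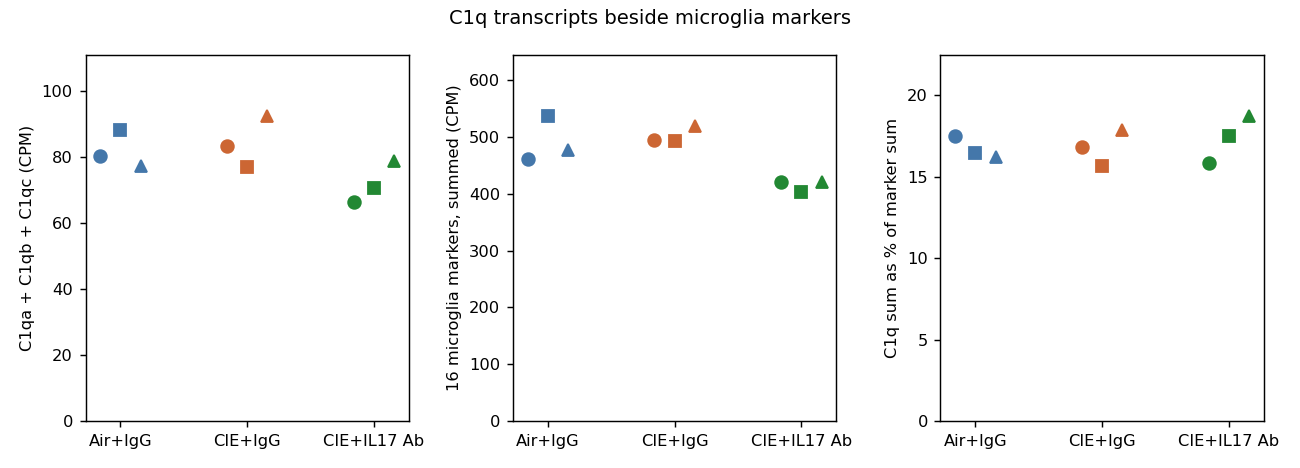
Summed CPM of C1qa, C1qb and C1qc (left), summed CPM of 16 microglia markers (middle) and the first as a percentage of the second (right), for each of the 9 libraries by group; circles, squares and triangles are replicates 1, 2 and 3. The marker sum of the CIE+IL17 Ab libraries lies at 403.1 to 420.6 CPM, below the other 6, while the percentage overlaps between groups.

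The measured ratios of the chains to each other varied between libraries. Each chain had 147 to 344 estimated counts in a library, and the part of counting noise in these ratios was not tested. C1qb to C1qc, in CPM, was 0.815, 0.877 and 0.857 in Air+IgG, 0.758, 0.983 and 0.954 in CIE+IgG and 1.149, 1.139 and 0.87 in CIE+IL17 Ab. Over the 9 libraries, log2 CPM of C1qa and C1qc had a Pearson correlation of 0.694, C1qb and C1qc one of 0.381 and C1qa and C1qb one of 0.217, given as a description of 9 points that share their library preparation. The genes most like C1qc, among 12122 with a mean of at least 5 CPM, were Cyth4 (r = 0.945), Ftl1 (0.944) and 2810459M11Rik (0.933). For C1qa they were 1110059G10Rik (0.958), Luc7l (0.948) and Atg16l1 (0.944), and for C1qb Wwtr1 (0.910), Ube2r2 (0.884) and Gabpa (0.870).

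C4b, the complement C4 whose fragments form part of the C3 convertase, was the member with the most reads, 561 to 1388 estimated counts per library. It had 80.1, 84.3 and 84.2 CPM in Air+IgG, 106, 81.7 and 129 CPM in CIE+IgG and 78.0, 66.6 and 72.2 CPM in CIE+IL17 Ab. CIE+IgG replicates 1 and 3 were above all other libraries and replicate 2 lay within the Air+IgG range, while every CIE+IL17 Ab library was below every library of both IgG groups. Against Air+IgG, CIE+IgG had a log2 fold change of 0.35 with an SE of 0.15 (adjusted p = 0.9997, unadjusted p = 0.0418, edgeR), and 0.18 without CIE+IgG replicate 3. That replicate also had the highest striatum marker sum, 1278 CPM, whose part in the C4b difference was not tested. CIE+IL17 Ab against CIE+IgG had -0.55 with an SE of 0.15 and a 95% interval of -0.887 to -0.214 (adjusted p = 0.0764, edgeR), the only one of 7 members without overlap there, where 25.9% of all genes had none and 13.2% were lower. DESeq2 called this difference (adjusted p = 0.0178), and over all 20 alternatives the adjusted p ranged from 0.0178 to 0.378. Against Air+IgG the value was -0.20 with an SE of 0.15 (adjusted p = 0.396, edgeR).

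The C4b difference was larger in the libraries numbered 37 to 39, with 66.6 CPM in CIE+IL17 Ab against 129 CPM in CIE+IgG, than in those numbered 54 to 60, with means of 75.1 against 93.8 CPM. Astrocyte markers summed to 5177 to 6208 CPM in CIE+IL17 Ab and to 6917 to 7838 CPM in CIE+IgG. Of these markers 1 of 10 was called higher (Gja1, a gap junction protein), against 1.78% of all genes, and 7 of 10 were above 0. Most of the astrocyte sum was the glutamate transporter gene Slc1a2, with means of 3670 and 5177 CPM (adjusted p = 0.0704, edgeR). Oligodendrocyte markers summed to 6456 to 7850 CPM and 4856 to 7686 CPM, with 0 of 10 called. The CA1 markers summed to 146.5 to 291.1 CPM in CIE+IL17 Ab against 463 to 669 CPM in CIE+IgG. For the thalamus and habenula markers the sums were 1030 to 1747 CPM against 214.4 to 340.3 CPM, so both lists also separated these groups. The part of any of these lists in the C4b difference was not tested. The annotation holds a paralog, C4a, at chr17:34809092-34823464. It is not among the 14779 genes with counts, so no C4a value can be set beside C4b. Of the 50-base words of the C4b coding transcript 35.2% also occur in C4a transcripts, and C4b had decimals in its estimated count in all 9 libraries, so its value includes reads that the counting divided. Genes like C4b in pattern included Tcaim (r = 0.917) and Lrrc58 (0.915).

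C3, the protein at which all complement pathways meet, had few reads, with 26 to 136 estimated counts per library. It had 4.12, 4.03 and 3.13 CPM in Air+IgG, 8.16, 3.51 and 12.7 CPM in CIE+IgG and 3.61, 10.1 and 8.86 CPM in CIE+IL17 Ab. The Air+IgG libraries were all low, and each ethanol-exposed group held 2 high libraries and 1 at the level of air. The log2 fold change was 1.12 with an SE of 0.49 for CIE+IgG against Air+IgG (adjusted p = 0.9997, unadjusted p = 0.05) and 1.03 with an SE of 0.49 for CIE+IL17 Ab against Air+IgG (adjusted p = 0.193, edgeR). Leaving out CIE+IgG replicate 3 gave 0.65 for the first of these, and the libraries numbered 54 to 60 alone gave 0.52. The striatum marker sum was also highest in CIE+IgG replicate 3, at 1278 CPM, and its part in the C3 difference was not tested. Between the ethanol-exposed groups the value was -0.099, with a 95% interval of -1.16 to 0.966.

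High C3 and high choroid plexus marker sums fell in the same libraries. The 4 libraries with the most C3, CIE+IgG replicates 1 and 3 and CIE+IL17 Ab replicates 2 and 3, were the 4 with the highest sum of 8 choroid plexus markers, at 4962, 5616, 7122 and 5756 CPM. In the other 5 libraries the sum was 66.0 to 3732 CPM and C3 was 3.13 to 4.12 CPM. Within these 5 the sum and C3 were not ordered alike. Air+IgG replicate 3 had the lowest C3, 3.13 CPM, at a sum of 2370 CPM, and CIE+IL17 Ab replicate 1 had 3.61 CPM at 66.0 CPM. None of these 8 markers was called in any comparison, and no marker was at 0 in any library. This list was singled out among the marker lists after the values were seen, and its part in the C3 difference was not tested. The genes most like C3 were Myo10 (r = 0.950), Serpinh1 (0.949) and Alpl (0.947).

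**Figure D3:**
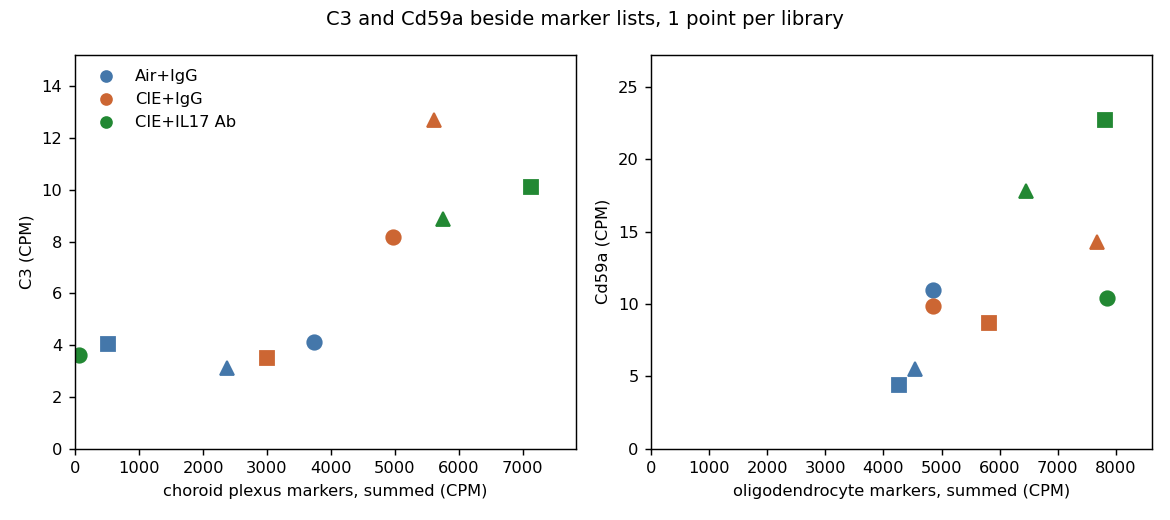
C3 (left) and Cd59a (right) in CPM on the vertical axes against the summed CPM of 8 choroid plexus markers and of 10 oligodendrocyte markers on the horizontal axes; each point is 1 of 9 libraries, coloured by group, with circles, squares and triangles for replicates 1, 2 and 3. C3 is at 8.16 CPM or more in the 4 libraries with a choroid plexus sum of at least 4962 CPM and at most 4.12 CPM in the others.

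Cd59a, the inhibitor of the membrane attack complex, had 10.9, 4.44 and 5.49 CPM in Air+IgG, 9.88, 8.66 and 14.3 CPM in CIE+IgG and 10.4, 22.7 and 17.8 CPM in CIE+IL17 Ab. The group means were ordered 6.96 ± 3.49, 10.9 ± 2.95 and 17.0 ± 6.18 CPM (SD, n = 3), but Air+IgG replicate 1 lay above the lowest library of each ethanol-exposed group, so the groups overlapped. The log2 fold change for CIE+IL17 Ab against Air+IgG was 1.29 with an SE of 0.39 and a 95% interval of 0.401 to 2.18 (adjusted p = 0.0621, edgeR). It passed in DESeq2 (adjusted p = 0.0117) and limma-voom (0.0493), and in edgeR without Air+IgG replicate 1 (1.77, adjusted p = 0.0496) and without CIE+IL17 Ab replicate 1 (1.53, adjusted p = 0.0331). In the libraries numbered 54 to 60 it was 0.86 (adjusted p = 0.391). The 2 steps between neighbouring groups were 0.65 with an SE of 0.40 for ethanol against air and 0.64 with an SE of 0.38 for the antibody against IgG, with adjusted p of 0.9997 and 0.36 in edgeR.

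Cd59b, the neighbouring paralog at chr2:104069849-104091187, was one of the other complement genes that passed. It had 1.59 ± 0.171 CPM in Air+IgG, 2.12 ± 0.305 CPM in CIE+IgG and 3.11 ± 0.319 CPM in CIE+IL17 Ab (SD, n = 3), from 13 to 37 estimated counts per library. It rose by 0.96 on the log2 scale with an SE of 0.24 in CIE+IL17 Ab against Air+IgG (adjusted p = 0.0346, edgeR), and was not called in DESeq2 (0.0548). Both genes had decimals in 5 libraries, and 3.98% of the 50-base words of Cd59a occur in Cd59b, so reads in this shared part cannot be assigned with certainty. Oligodendrocyte markers rose between the same groups: 7 of 10 were called higher, with sums of 6456 to 7850 CPM against 4260 to 4846 CPM. All 11 thalamus and habenula markers were also called higher, where 6.83% of all genes were. The library with the highest oligodendrocyte sum, CIE+IL17 Ab replicate 1 at 7850 CPM, had 10.4 CPM of Cd59a. The 3 libraries with the most Cd59a, CIE+IL17 Ab replicates 2 and 3 and CIE+IgG replicate 3, were also the 3 with the highest choroid plexus sum, at 7122, 5756 and 5616 CPM, while 2 of them were among the 3 highest in oligodendrocyte markers. Log2 CPM of C3 and Cd59a had a Pearson correlation of 0.744 over the 9 libraries, given as a description. These lists were set beside Cd59a after the values were seen, and their part in its difference was not tested. The genes most like Cd59a were Sil1 (r = 0.988), Antxr1 (0.984) and Acadl (0.979).

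Serping1, the C1 inhibitor, had 9.21, 13.9 and 9.66 CPM in Air+IgG, 9.45, 5.85 and 10.4 CPM in CIE+IgG and 6.53, 11.0 and 11.3 CPM in CIE+IL17 Ab. The groups overlapped, and the lowest library was CIE+IgG replicate 2. The 95% intervals of the log2 fold change were -0.977 to 0.309, -0.472 to 0.813 and -0.803 to 0.475 in the 3 comparisons. CIE+IgG replicate 2 also had the lowest sum of the 3 border macrophage markers tested, of 7 listed, 5.03 CPM against at least 9.56 CPM elsewhere. Its sum of meningeal fibroblast markers was the second-lowest, 163.9 CPM. CIE+IL17 Ab replicate 1, next lowest in Serping1, had 14.45 CPM of the border macrophage markers and the lowest meningeal fibroblast sum, 141.2 CPM. These lists were set beside Serping1 after the values were seen, and their part in its values was not tested. Genes like Serping1 in pattern included Zcchc9 (r = 0.928) and Bgn (0.927).

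**Figure D4:**
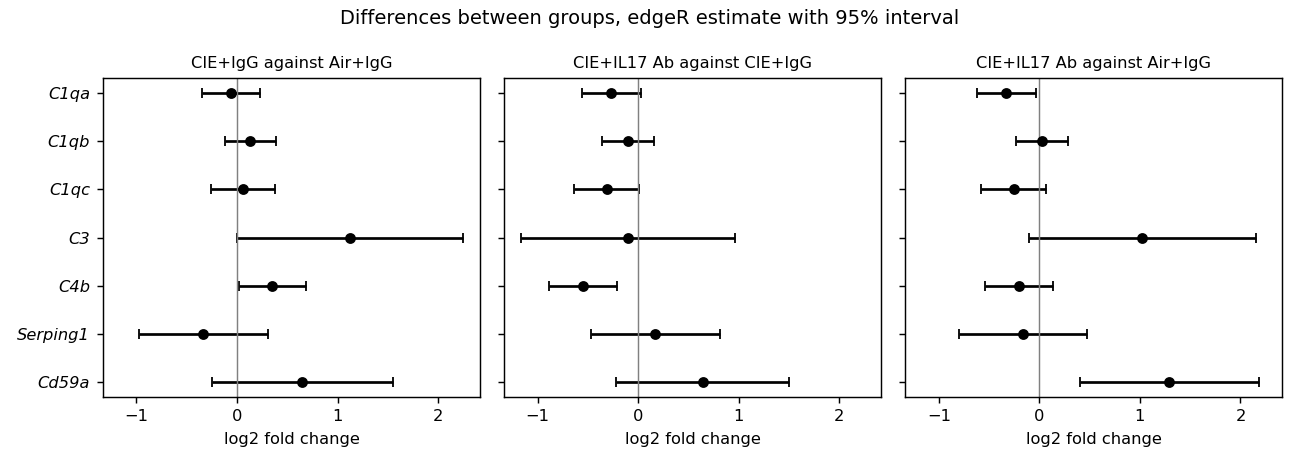
Log2 fold change (horizontal axes) of the 7 complement genes in the 3 comparisons; points are edgeR estimates and bars their 95% intervals. The interval of C4b lies below 0 for CIE+IL17 Ab against CIE+IgG (-0.887 to -0.214), and that of Cd59a above 0 for CIE+IL17 Ab against Air+IgG (0.401 to 2.18); neither passed after adjustment over all genes.

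The rest of the pathway was read from lists of components, regulators and receptors. Of 55 other complement genes listed, 31 were tested. None was called between CIE+IgG and Air+IgG or between CIE+IL17 Ab and CIE+IgG, and their median log2 fold changes were -0.055 and -0.018, against -0.007 and 0.015 for all genes. Between CIE+IL17 Ab and Air+IgG, 1 rose and 2 fell, where 6.83% of all genes were called higher and 6.71% lower. The gene that rose was Cd59b. Csmd1, a large transmembrane regulator made by neurons, stood at 390 ± 22.5 CPM in Air+IgG and 202 ± 46.6 CPM in CIE+IL17 Ab (SD, n = 3). It fell by 0.95 on the log2 scale (SE 0.18, adjusted p = 0.0162, edgeR). Calr, calreticulin, an endoplasmic reticulum chaperone that also binds C1q at the cell surface, stood at 245 ± 0.676 and 201 ± 8.47 CPM and fell by 0.28 (SE 0.076, adjusted p = 0.0416, edgeR).

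These 3 calls depended on which libraries were in the fit. Without Air+IgG replicates 1, 2 or 3 in turn, or without CIE+IL17 Ab replicate 2, all 3 missed the threshold, with adjusted p in edgeR between 0.0528 and 0.058 for Csmd1, 0.0993 and 0.136 for Calr and 0.0814 and 0.1 for Cd59b, and in the libraries numbered 54 to 60 they had 0.119, 0.286 and 0.223. Calr also missed it without CIE+IgG replicate 1 (0.0739) or 2 (0.0521), and Cd59b without CIE+IgG replicate 1 (0.0598), CIE+IL17 Ab replicate 1 (0.0573) or CIE+IL17 Ab replicate 3 (0.0554). In a fit of the 2 groups alone, Calr had 0.0781 and Cd59b 0.0638. Of 20 alternatives, 13 called Csmd1, 10 called Calr and 8 called Cd59b, and all 20 kept the direction of each. Not every alternative that missed the threshold is named here. Csmd1 had 337 ± 59.4 CPM in CIE+IgG, and its values in the 3 CIE+IL17 Ab libraries, 157 to 250 CPM, lay below all others, as did the sum of the CA1 markers. The part of the CA1 and thalamus lists in this difference was not tested.

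Among classical and lectin components, 7 of 16 listed genes were tested and 0 called in each comparison. C1ra, a C1r protease, had log2 fold changes of 0.64, -0.56 and 0.073 for ethanol against air, antibody against IgG and antibody against air, with SE of 0.49, 0.48 and 0.50. Masp1, a protease of the lectin pathway, had -0.18, 0.30 and 0.12, and Colec12, a scavenger receptor with a collagen-like stretch, -0.68, 0.68 and 0.002. Of the alternative and terminal components 3 of 10 were tested, Cfb, Cfp and C8g, and 0 called. Properdin (Cfp), which stabilises the alternative convertase, had a log2 fold change of -0.04 for ethanol against air (adjusted p = 0.9997, edgeR).

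Among 14 tested regulators, Clu (clusterin), a chaperone that also blocks the terminal complex, had log2 fold changes of 0.10, -0.11 and -0.006 with an SE of 0.10 in each comparison, and Csmd3 had 0.055, 0.12 and 0.18. Among 7 tested receptors, the clearance receptor Lrp1 had 0.012, 0.094 and 0.11 with an SE of 0.10, and Megf10, an engulfment receptor of astrocytes, had 0.097, 0.26 and 0.36 (adjusted p = 0.9997, 0.201 and 0.0624, edgeR). The C1q-like synaptic proteins, which share the globular C1q domain but are secreted by neurons and organise synapses, were a separate list of which 3 of 4 were tested and 0 called. C1ql2 and C1ql3 had -1.91 and -1.61 for CIE+IL17 Ab against Air+IgG, with SE of 0.68 and 0.54 (adjusted p = 0.0947 and 0.0807, edgeR), and C1ql1 had -0.21. For CIE+IgG against Air+IgG, C1ql2 and C1ql3 had -0.62 and -0.52, with SE of 0.64 and 0.52. The part of the CA1 and thalamus lists in the C1ql2 and C1ql3 differences was not tested.

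**Figure D5:**
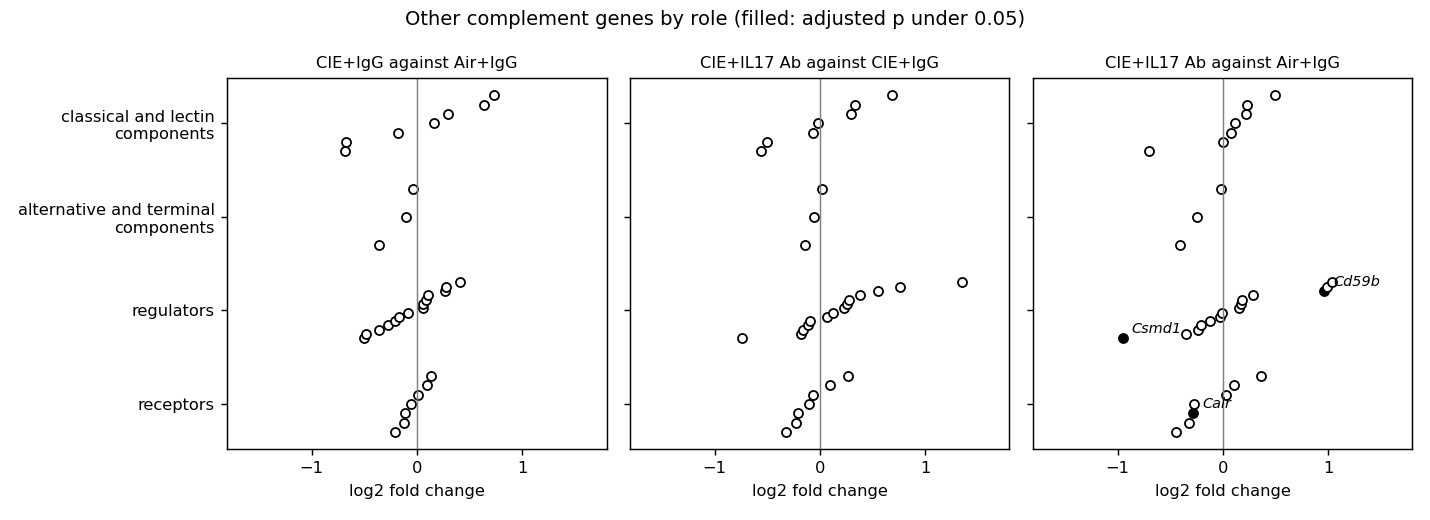
Log2 fold change (horizontal axes) of the 31 other complement genes tested, grouped by role, in the 3 comparisons; each point is a gene, and filled points have an adjusted p under 0.05 in edgeR. Filled points appear for CIE+IL17 Ab against Air+IgG alone: Cd59b at 0.96, Csmd1 at -0.95 and Calr at -0.28.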

How the data were processed

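Hippocampal polyA+ RNA from 9 mice was sequenced with a stranded kit, per the labels' protocols. The values the authors deposited are estimated counts, 1 column for each library, with no scaling for depth; STAR 2.5.1a, RSEM 1.3.0 and the build GRCm38 come from the submitters' processing notes. For the gene annotation and any filter behind the table, no source used here gives details. Estimated counts assign reads of shared sequence in fractions.

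Groups follow the sample titles. Counts were rounded and filtered with filterByExpr (minimum count 10), which left 14696 genes. Differences were tested with edgeR 4.0.16 (R 4.3.3, TMM, glmQLFit with robust=TRUE, quasi-likelihood F-test) on all 9 libraries with a mean per group, Benjamini-Hochberg adjusted over all genes, called under 0.05. The SE is the log2 fold change divided by the square root of F, and 95% intervals use the degrees of freedom of each gene. Log2 CPM used a prior count of 2. Levels per kb divide CPM by the principal GENCODE M21 transcript. Correlations are Pearson's over 9 libraries, without tests. The genes most alike were picked as the highest among 12122 genes, so their high values do not by themselves show shared regulation. The fits were tested on simulated data. No pair of libraries was alike within sampling noise, with a chi-square per degree of freedom of at least 3.93.

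The 7 members, the gene lists and the rule for named genes were chosen with earlier results of these data known. The rule names all members, other complement genes that were called or among the 3 most abundant of their list, and the 3 genes most alike in pattern; some of the latter are not reported here. Alternatives were DESeq2 1.42.0, its size factors, limma-voom 3.58.1, 2 other filters, robust=FALSE, fits restricted to the compared pair of groups, blocks of replicate or label number, subsets of libraries and each library left out. An alternative gene length, and the same alternatives for other complement genes that were called, were added after seeing the data.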

Additional observations from a re-analysis of the deposited data

How the results depend on the processing

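The 7 complement genes were refitted under 20 alternatives in 3 comparisons, and of 420 values 399 kept their direction and their side of the threshold, 5 newly passed and 16 changed sign. With the replicate block no member was called, and the 3 other complement genes called (Csmd1, Calr, Cd59b) had adjusted p of 0.054, 0.0825 and 0.0809. No member passed between CIE+IgG and Air+IgG in any alternative. The members called between CIE+IL17 Ab and CIE+IgG numbered 1 with DESeq2 (C4b), and between CIE+IL17 Ab and Air+IgG 1 each with DESeq2, limma-voom and without Air+IgG replicate 1 or CIE+IL17 Ab replicate 1 (Cd59a in each), with a range of 0 to 1 over the libraries left out. For C3 between CIE+IL17 Ab and CIE+IgG, -0.099 became 0.0009955 in limma-voom, 0.10 in the libraries numbered 54 to 60 and 0.21 without the 2 libraries rich in Lars2. Leaving out single libraries gave -0.45 to 0.37 for it, above 0 without the third CIE+IgG library (0.37) or the first CIE+IL17 Ab library (0.21). For Serping1, 0.17 in that comparison became -0.040 without CIE+IgG replicate 2, and -0.16 against Air+IgG became 0.24 without the Lars2-rich libraries, 0.041 without CIE+IL17 Ab replicate 1 and 0.029 without Air+IgG replicate 2; single libraries left out gave -0.040 to 0.37 for the first and -0.29 to 0.041 for the second. Between CIE+IgG and Air+IgG, C1qa became 0.0051 without the Lars2-rich libraries and 0.018 without CIE+IgG replicate 2 (range -0.15 to 0.018), C1qb became -0.037 and C1qc -0.062 in the libraries numbered 54 to 60, and C1qc became -0.021 without Air+IgG replicate 3 (range -0.021 to 0.13). C1qb against Air+IgG in CIE+IL17 Ab became -0.060 in the libraries numbered 54 to 60 and -0.051 without Air+IgG replicate 3 (range -0.051 to 0.082). The causes were not tested.

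Over all genes the calls between CIE+IgG and Air+IgG numbered 6 with DESeq2 in place of 0, and 0 for every library left out. The 468 calls between CIE+IL17 Ab and CIE+IgG became 1481 with DESeq2, 1 with only the 2 groups compared, 776 with the label number block and 1 in the libraries numbered 54 to 60, and ranged from 0 to 1313 over the libraries left out. The 1990 calls between CIE+IL17 Ab and Air+IgG became 1192 with only the 2 groups, 2 in the libraries numbered 54 to 60 and 1067 without the Lars2-rich libraries, with a range of 0 to 2305 over the libraries left out. With the replicate block the calls were 14 and 571. Replicate numbers of the titles do not show a pairing: deviations of same-numbered libraries correlated between -0.27 and 0.249 over 9 pairs, and 0 of 9 libraries correlated best with their own number. Depth limits C3, Cd59a and Serping1 most among the 7, with as few as 26, 33 and 47 estimated counts in a library, and Cd59b had as few as 13.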
